A study of Homo sapiens with 12 samples.

Results

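In LNCaP cells, the transcripts of the ID genes and of the bone morphogenetic protein (BMP) pathway that feeds them responded to androgen and to mTOR inhibition in different combinations. ID2 was higher with the androgen R1881, higher with the mTOR inhibitor Torin 1, and highest with both. The receptor BMPR1B was higher with R1881 on both of its probes and showed the pattern of ID2 on the brighter. ID1 was lowest with R1881 and 3.75-fold higher with Torin 1 than with vehicle. ID3 fell below detection with R1881 and stayed detected when Torin 1 was added. NBL1, a secreted BMP antagonist, was detected only in the groups given R1881. The genes described are ID1, ID2, ID3, ID4, BMPR1A, BMPR1B, BMPR2, SMAD6, SMAD7 and NBL1. ID1 and NBL1 were chosen by their differences in these same arrays, in the comparisons of both drugs with R1881 and of Torin 1 with vehicle and in the interaction, and the other members belong to the same pathway and were named with results known. Every probe annotated to a member's symbol was taken, which gave 15 of the 47323 probes on the array, for 9 of the 10 members. Of these, 14 were among the 20413 probes detected on at least 3 of 12 arrays. No probe used here carried the symbol BMPR1A, which was not analysed.

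LNCaP is an androgen-responsive line of human prostate cancer cells. Cells of all 4 groups spent 48 h in steroid-free medium, and treatment then lasted 48 h. The groups were vehicle (ethanol and DMSO), R1881, a synthetic androgen, at 10 nM, Torin 1, an ATP-competitive inhibitor of both mTOR complexes, at 100 nM, and Torin 1 with R1881 at those doses. Each group had 3 arrays of the Illumina HumanHT-12 V4 type. The labels do not say whether the 3 samples of a group were separate cultures, so p-values measure only the spread between these samples.

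BMPs are secreted ligands that bring together type I receptors, such as BMPR1A and BMPR1B, and a type II receptor, such as BMPR2. The receptors phosphorylate SMAD1, SMAD5 and SMAD9, which enter the nucleus with SMAD4 and switch on target genes, of which the ID genes are the best known. ID proteins have a helix-loop-helix domain but no DNA-binding region, and they hold basic helix-loop-helix factors away from DNA. SMAD6 and SMAD7 are induced by the pathway and inhibit it from within the cell, and NBL1 (also called DAN) binds ligands outside it. In prostate epithelium the pathway is known for restraining growth and for roles in bone metastasis.

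The sequences upstream of ID1, ID2, ID3 and SMAD6 are shown because these genes are textbook SMAD targets and yet moved differently here. They are the 250 bases before the annotated start, from RefSeq on GRCh38.p14. The ID1 stretch lies at chr20:31605039-31605288 (plus strand), that of ID2 at chr2:8681806-8682055 (plus strand), that of ID3 at chr1:23559502-23559751 (minus strand) and that of SMAD6 at chr15:66701986-66702235 (plus strand). Each is printed 5′ to 3′ on the gene's strand, with GTCT and its reverse complement AGAC, the core bound by SMAD4 and SMAD3, in capitals.
ID1: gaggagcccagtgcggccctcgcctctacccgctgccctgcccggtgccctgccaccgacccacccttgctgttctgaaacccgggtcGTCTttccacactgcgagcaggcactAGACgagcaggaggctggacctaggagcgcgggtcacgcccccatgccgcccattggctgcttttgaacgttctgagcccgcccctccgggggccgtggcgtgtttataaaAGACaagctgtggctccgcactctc
ID2: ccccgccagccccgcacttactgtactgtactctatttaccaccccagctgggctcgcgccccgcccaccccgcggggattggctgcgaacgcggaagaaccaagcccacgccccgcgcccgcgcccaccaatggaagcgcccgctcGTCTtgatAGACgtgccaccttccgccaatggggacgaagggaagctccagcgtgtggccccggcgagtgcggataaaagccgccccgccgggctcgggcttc
ID3: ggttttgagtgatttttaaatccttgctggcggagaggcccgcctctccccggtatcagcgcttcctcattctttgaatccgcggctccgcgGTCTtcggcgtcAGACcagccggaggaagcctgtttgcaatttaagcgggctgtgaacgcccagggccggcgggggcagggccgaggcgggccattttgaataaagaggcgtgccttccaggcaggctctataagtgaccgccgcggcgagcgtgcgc
SMAD6: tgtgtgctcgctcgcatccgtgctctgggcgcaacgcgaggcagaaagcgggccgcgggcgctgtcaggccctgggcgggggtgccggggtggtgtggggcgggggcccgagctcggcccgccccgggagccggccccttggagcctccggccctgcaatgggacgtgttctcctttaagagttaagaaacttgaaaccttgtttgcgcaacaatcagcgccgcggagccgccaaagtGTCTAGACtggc

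ID1 held these letters at positions -162, -136 and -25 from the start, ID2 at -103 and -95, ID3 at -158 and -146, and SMAD6 at -12 and -8. The core is common. It lay in 84.0% of 35116 RefSeq windows that reach from 250 bases before to 50 after a start, both strands searched, and in 16 of the 18 such windows of the members. In SMAD6 both matches adjoin and form the palindrome GTCTAGAC, which 71 of all windows (0.202%) held and no other member window did. GGCGCC, bound by SMAD1 and SMAD5, lay in 19.2% of all windows and in 2 member windows, of BMPR2 and NBL1. The motifs were chosen after the windows had been read, and a match describes letters only.

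Levels are background-corrected, quantile-normalized log2 signals, and a probe counts as detected on an array where its detection p is under 0.05. The arrays detected between 16681 and 18868 probes. Among markers of luminal prostate epithelium, 8 of 10 had a probe and all 8 were kept, with a mean log2 level per array of 8.32 to 8.47 with vehicle, 8.997 to 9.11 with R1881, 8.52 to 8.71 with Torin 1 and 9.23 to 9.24 with both. None of the 3 basal markers with a probe was kept. Of the stromal markers 3 of 8 were kept, with a mean over all 14 probes of 4.98 to 5.04 with vehicle, 5.03 to 5.07 with R1881, 5.10 to 5.15 with Torin 1 and 4.88 to 4.95 with both. COL1A2, COL3A1, DCN, LUM and FAP were not kept. The kept marker ACTA2, a smooth muscle actin, was 0.95 log2 higher with R1881 and 1.16 higher with Torin 1 than with vehicle. With both drugs ACTA2 was 1.34 lower than with Torin 1. The other kept stromal markers, VIM and COL1A1, gave -0.03 and -0.13 log2 with R1881 and 0.43 and -0.004 with Torin 1. For both drugs against Torin 1 they gave -0.58 and -0.15, and COL1A1 lay near the background. VWF, a protein of endothelium, was 1.18 lower with R1881 and 1.16 lower with Torin 1, while PECAM1 and CDH5 were not kept. Of the immune markers 3 of 5 were kept, with a mean over all 13 probes of 4.595 to 4.64 with vehicle, 4.73 to 4.84 with R1881, 4.58 to 4.65 with Torin 1 and 4.64 to 4.69 with both, and CD3E and CD14 were not kept. The luminal and immune means were higher with R1881 than with vehicle on all arrays. The luminal markers were split, each by its brightest kept probe. With R1881 against vehicle KLK3, KRT8, KRT18 and TMPRSS2 were higher. FOLH1, EPCAM, CDH1 and HOXB13 were lower, at -0.83, -0.32, -0.35 and -0.54 log2. The part of these markers in the members' differences was not tested. In RNA from whole cultures, fewer cells of a type and less RNA per cell cannot be told apart.

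ID1 was measured by probe ILMN_1664861, and it was high in both groups given Torin 1. Its level was 5.29, 4.999 and 5.27 on the vehicle arrays and 4.74, 4.46 and 4.56 with R1881, where 1 of 3 arrays detected it. With Torin 1 it was 7.24, 7.13 and 6.91, and with both drugs 7.46, 7.56 and 7.54. No group overlapped another, and the order was R1881, vehicle, Torin 1, both. The Torin 1 arrays lay 1.91 ± 0.11 log2 (SE) above vehicle, or 3.75-fold, and the arrays with both drugs lay 2.94 ± 0.11 above R1881 alone, or 7.66-fold. Of all 20413 kept probes, only 1 stood higher than ID1 by its difference under Torin 1, and none did so in the second comparison. Those differences chose the gene and are given with no test. The R1881 arrays lay 0.60 ± 0.11 log2 below vehicle (1.52-fold), and the arrays with both drugs lay 0.43 ± 0.11 above Torin 1 (1.34-fold; 0.25 with arrays scaled to their median over all probes). These values make up the interaction of 1.03 ± 0.16 log2, which also belonged to the choice, and they too are given with no test.

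The size of the ID1 differences, like that of other members, depended on how background was treated. In the authors' deposited processed table, the ID1 difference was 1.07 log2 for Torin 1 against vehicle, 1.51 for both drugs against R1881 and -0.20 for R1881 against vehicle. With an offset of 50 in the background correction those of ID1 were 1.28, 1.91 and -0.28. The second ID1 probe, ILMN_1665832, was dim. It was detected on 0 of 9 arrays outside the group with both drugs, where it read 5.05, 4.90 and 4.83 and was detected on all 3. There it was at least 1.13-fold above R1881, at least 1.15-fold above Torin 1 and at least 1.17-fold above vehicle. Such bounds, here and below, set the detected group against the dimmest detected signal of each array. They hold only for this background correction and normalization. That probe passed the filter only through the group in which it was high, so no test is given.

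ID2 rose with each drug, and both probes showed it. ILMN_2086095 read 6.64, 6.45 and 6.52 with vehicle, 8.63, 8.37 and 8.52 with R1881, 7.38, 7.59 and 7.50 with Torin 1, and 9.69, 9.64 and 9.67 with both. ILMN_1793990 read 6.50, 6.26 and 6.50, then 8.43, 8.39 and 8.35, then 7.18, 7.14 and 7.12, then 9.52, 9.37 and 9.49 in the same groups. All arrays detected both probes, and the groups stood apart in the order vehicle, Torin 1, R1881, both. R1881 raised ID2 by 1.97 ± 0.09 log2 on either probe, or 3.92-fold (adjusted p = 1.9e-09 and 9.14e-10). Torin 1 raised it by 0.95 ± 0.09 and 0.73 ± 0.09 (adjusted p = 6.33e-06 and 4.04e-05). With both drugs ID2 stood 3.13 ± 0.09 and 3.04 ± 0.09 above vehicle, or 8.76-fold and 8.20-fold. That was 1.16 and 1.07 above R1881 and 2.18 and 2.31 above Torin 1. The authors' processed table gave smaller gaps from vehicle. There ILMN_2086095 read 7.14, 7.04 and 7.08 with vehicle, 8.49, 8.40 and 8.51 with R1881, and 9.67, 9.64 and 9.67 with both. The responses to R1881 with and without Torin 1 differed by 0.21 ± 0.13 and 0.34 ± 0.12 log2, which did not pass the test (adjusted p = 0.369 and 0.0979). On the second probe the difference passed without vehicle replicate 2 (adjusted p = 0.0417; 0.000324 to 0.194 over all alternatives). On the authors' processed table it passed for both probes, at 0.51 and 0.59 (adjusted p = 0.00041 and 0.000324), and with the offset of 50, at 0.34 and 0.44 (adjusted p = 0.0341 and 0.00323).

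ID3 fell below detection with R1881. Its probe ILMN_1732296 read 6.73, 6.68 and 6.79 with vehicle, and 4.55, 4.66 and 4.46 with R1881, where no array detected it. It read 7.52, 7.48 and 7.46 with Torin 1 and 6.43, 6.22 and 6.28 with both. The groups did not overlap, and the order was R1881, both, vehicle, Torin 1. With the background correction used here, R1881 lowered ID3 at least 3.93-fold (limma adjusted p = 3.41e-10). The authors' processed table gave smaller gaps. There ID3 read 7.19, 7.17 and 7.24 with vehicle, 6.19, 6.22 and 6.19 with R1881, and 7.07, 6.92 and 6.99 with both. The ID3 bounds of this paragraph therefore hold only for the correction used here. Torin 1 raised ID3 by 0.76 ± 0.08 (1.69-fold, adjusted p = 2.81e-05). With both drugs ID3 was at least 2.94-fold above R1881 alone (adjusted p = 4.24e-09), yet it was 1.18 ± 0.08 below Torin 1 (adjusted p = 1.1e-07) and 0.42 ± 0.08 below vehicle (adjusted p = 0.00114). The fitted response to R1881 was 1.00 ± 0.12 log2 less negative with Torin 1 than without it (adjusted p = 0.000168). Since the R1881 arrays did not detect ID3, the size of that difference rests on levels near the background, and the ID3 value was 0.37 with the offset of 50 and 0.22 on the authors' processed table (adjusted p = 0.00605 and 0.042).

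ID4 was not detected on any of the 12 arrays. Its probe ILMN_1721758 read 4.20 to 4.29 with detection p between 0.704 and 0.978, so no difference in ID4 was measurable.

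**Figure D1:**
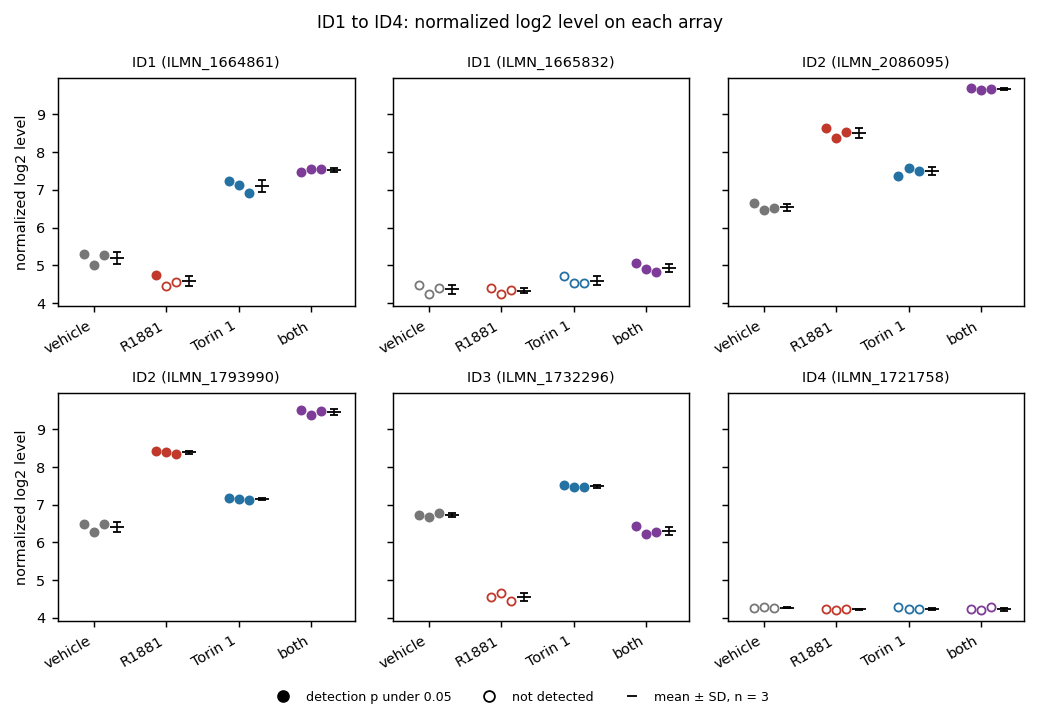
Normalized log2 level (vertical axis) of each ID probe on each array of the 4 groups (horizontal axis; "both" is Torin 1 with R1881). Points are arrays, filled where the probe was detected and open where it was not, and bars are the mean ± SD of 3 arrays. ID2 climbs to 9.67 with both drugs, ID3 drops to 4.56 with R1881 alone, and ID4 stays between 4.20 and 4.29.

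Among the receptors, BMPR1B, a type I receptor, rose with R1881 on both probes. ILMN_1888359, which the platform annotation ties to BMPR1B through an expressed sequence tag, read 6.59, 6.38 and 6.61 with vehicle and 7.80, 7.51 and 7.85 with R1881. It read 7.05, 7.20 and 6.94 with Torin 1 and 8.92, 9.05 and 8.91 with both. The groups did not overlap and followed the order vehicle, Torin 1, R1881, both, as ID2 did. R1881 raised the probe by 1.19 ± 0.11 log2 (2.29-fold, adjusted p = 1.89e-06), Torin 1 by 0.54 ± 0.11 (1.45-fold, adjusted p = 0.00298), and both drugs by 2.43 ± 0.11 (5.40-fold, adjusted p = 6e-10). The response to R1881 was 0.70 ± 0.16 greater with Torin 1 than without it (adjusted p = 0.012). On the authors' processed table the rise with R1881 was smaller. There the probe read 7.12, 6.99 and 7.14 with vehicle and 7.81, 7.70 and 7.93 with R1881.

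The dimmer BMPR1B probe, ILMN_1801658, read 4.76, 5.05 and 4.77 with vehicle, 5.52, 5.62 and 5.95 with R1881, 4.86, 5.01 and 4.82 with Torin 1, and 5.65, 6.41 and 5.82 with both. All arrays detected it. The arrays with R1881 stood above those without, while the Torin 1 arrays overlapped vehicle and the arrays with both drugs overlapped R1881. It rose by 0.84 ± 0.17 with R1881 (adjusted p = 0.00213) and by 1.06 ± 0.17 when R1881 was added to Torin 1 (adjusted p = 0.000252). Its difference was 0.04 ± 0.17 for Torin 1 against vehicle (adjusted p = 0.917), 0.26 ± 0.17 for both drugs against R1881 (adjusted p = 0.267) and 0.22 ± 0.24 for the interaction (adjusted p = 0.64). So both probes gave the response to R1881, and a response to Torin 1 passed the test on ILMN_1888359 alone.

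BMPR2, the type II receptor for BMPs, varied less. ILMN_1789095 read 7.49, 7.87 and 7.43 with vehicle, 7.71, 7.37 and 7.51 with R1881, 7.51, 7.86 and 7.68 with Torin 1, and 7.93, 8.20 and 8.07 with both. ILMN_2070896 read 7.42, 7.76 and 7.55, then 7.45, 7.41 and 7.39, then 7.66, 7.80 and 7.55, then 7.90, 8.03 and 7.95. On either probe the arrays with both drugs lay above all others, and the other 3 groups overlapped, save R1881 and Torin 1 on the second probe. Neither drug alone gave a difference that passed the test, with log2 values of -0.07 ± 0.14 and -0.16 ± 0.10 for R1881 and 0.09 ± 0.14 and 0.09 ± 0.10 for Torin 1. With arrays scaled to their median over all probes, the R1881 difference of ILMN_2070896 passed (-0.39, adjusted p = 0.0354; up to 0.689 over all alternatives). With both drugs BMPR2 was 0.54 ± 0.14 and 0.54 ± 0.10 above R1881 (1.45-fold, adjusted p = 0.00623 and 0.000738). It was 0.47 and 0.38 above vehicle (adjusted p = 0.0115 and 0.00663) and 0.39 and 0.29 above Torin 1 (adjusted p = 0.038 and 0.034). The calls against Torin 1 were lost on each probe without any of Torin 1 replicates 1 and 3 or replicates 2 and 3 of both drugs (adjusted p = 0.0681 to 0.139). Scaling arrays to their median over all probes ended the calls against Torin 1 (adjusted p = 0.3 and 0.525) and against vehicle (adjusted p = 0.359 and 0.626), and leaving out vehicle replicate 3 ended the call against vehicle of ILMN_1789095 (adjusted p = 0.0536).

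The inhibitory SMADs fell with R1881, on a single probe each, and no SMAD6 or SMAD7 probe passed the test for both drugs against R1881. SMAD6, the more selective inhibitor of BMP receptors, read 6.48, 6.35 and 6.54 with vehicle, 5.83, 5.86 and 6.29 with R1881, 6.86, 6.68 and 6.93 with Torin 1, and 5.82, 6.00 and 6.13 with both (ILMN_1767068). All arrays with R1881 lay below all arrays without it, and R1881 overlapped both drugs. R1881 lowered SMAD6 by 0.46 ± 0.13 log2 (1.38-fold, adjusted p = 0.0136), a call lost without vehicle replicate 3 or R1881 replicate 1 or 2 (adjusted p = 0.0516 to 0.0603; 0.00104 to 0.0609 over all alternatives). Under Torin 1 the fall was 0.84 ± 0.13 (1.79-fold, adjusted p = 0.000143). Torin 1 against vehicle gave 0.37 ± 0.13, with an adjusted p of 0.0518 that lay between 0.0176 and 0.223 over all alternatives and was under the threshold without R1881 replicate 1 or 3, Torin 1 replicate 2 or replicate 1 of both drugs (adjusted p = 0.0214 to 0.0482). The difference between both drugs and R1881 was -0.01 ± 0.13 (adjusted p = 0.96), and the interaction was -0.38 ± 0.18 (adjusted p = 0.225).

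SMAD7, which blocks BMP and TGF-beta receptors alike, read 5.13, 5.36 and 5.07 with vehicle, 4.61, 4.69 and 5.12 with R1881, 5.71, 5.76 and 5.67 with Torin 1, and 5.04, 4.98 and 5.02 with both (ILMN_2203891). The Torin 1 arrays were the highest, 1 of 3 R1881 arrays detected the probe, and R1881 overlapped vehicle and both drugs. Torin 1 raised it by 0.53 ± 0.12 log2 (1.44-fold, adjusted p = 0.00683), and R1881 lowered it by 0.70 ± 0.12 in the presence of Torin 1 (1.62-fold, adjusted p = 0.000484). Without Torin 1, the fall with R1881 was 0.38 ± 0.12 (adjusted p = 0.0323), a call lost without vehicle replicate 1 or 2 or R1881 replicate 1 or 2 (adjusted p = 0.0535 to 0.136; 0.00161 to 0.136 over all alternatives). Both drugs against R1881 gave 0.20 ± 0.12 (adjusted p = 0.215), and 0.36 without R1881 replicate 3 (adjusted p = 0.0136; up to 0.561 over all alternatives).

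The second SMAD7 probe, ILMN_2203896, was near background and was detected on all 3 arrays with Torin 1 alone, on 1 with vehicle and on none of the others. It read 5.14, 4.83 and 4.98 with Torin 1 and between 4.44 and 4.71 elsewhere. It was 0.40 ± 0.10 log2 above vehicle with Torin 1 and at least 1.14-fold lower with both drugs than with Torin 1. Without the Torin 1 arrays, in which it was high, it would not have passed the filter, so no test is given.

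NBL1 had the widest range of the members. ILMN_1789599 read 4.32, 4.38 and 4.44 with vehicle and 4.63, 4.27 and 4.43 with Torin 1, undetected on all 6 arrays. It read 7.04, 7.10 and 7.27 with R1881 and 9.71, 9.63 and 9.55 with both. ILMN_2405009 read 6.20, 6.35 and 6.19 with R1881 and 8.71, 8.45 and 8.66 with both, and it was undetected elsewhere, at 4.31 to 4.43. The arrays with R1881 alone and with both drugs formed separate groups on each probe, while vehicle and Torin 1 were both below background and had no measurable order. With the background correction used here, NBL1 with R1881 lay at least 5.37-fold above vehicle on the first probe and at least 2.91-fold on the second. With both drugs it lay at least 30-fold and at least 14.7-fold above Torin 1. The authors' processed table gave smaller gaps. There the first probe read 6.19, 6.19 and 6.20 with vehicle and 7.38, 7.41 and 7.51 with R1881. It read 6.24, 6.18 and 6.20 with Torin 1 and 9.71, 9.63 and 9.53 with both. On the second probe R1881 arrays read 7.02, 7.01 and 6.94 there. The arrays with both drugs lay 2.50 ± 0.10 and 2.36 ± 0.09 log2 above R1881 alone, or 5.64-fold and 5.13-fold, which rank 4 and 6 from the top among all kept probes. That difference and the interaction chose the gene, and both probes passed the filter only through the groups given R1881, so no NBL1 difference is given with a test. RefSeq also lists MICOS10-NBL1, a readthrough transcript that spans NBL1, and the probe annotation does not tell the signals of the pair apart.

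**Figure D2:**
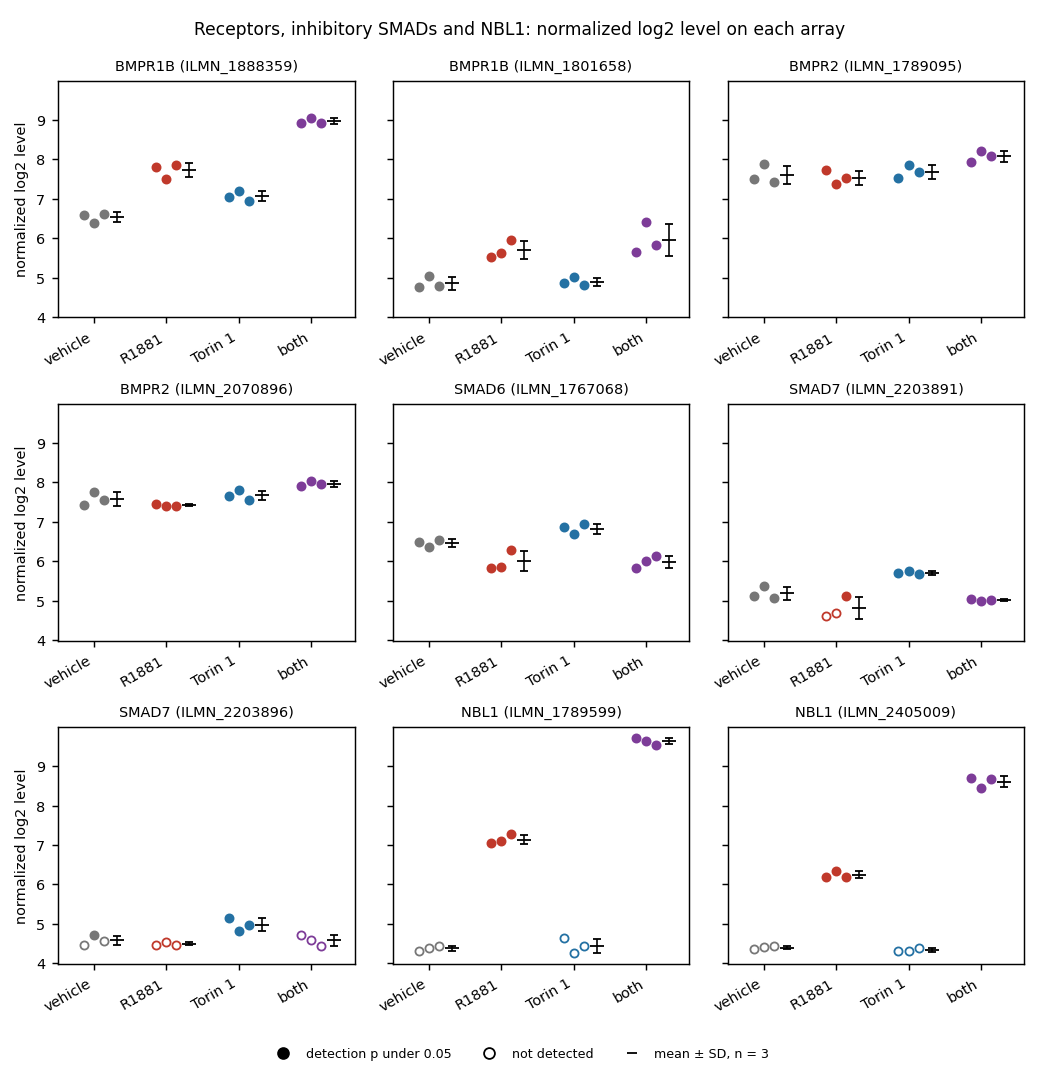
Normalized log2 level (vertical axis) of each probe of the receptors, inhibitory SMADs and NBL1 on each array of the 4 groups (horizontal axis; "both" is Torin 1 with R1881). Points are arrays, filled where detected and open where not, and bars are the mean ± SD of 3 arrays. NBL1 is detected only with R1881 and reaches 9.63 with both drugs, BMPR1B reaches 8.96, and BMPR2 stays between 7.37 and 8.20.

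Set side by side, 10 of the 14 kept member probes passed the test for R1881 against vehicle, 6 higher and 4 lower, where 29.8% of all kept probes did. For Torin 1 against vehicle 7 passed, all higher, where 24.7% of all kept probes passed in either direction and 13.0% rose. For both drugs against R1881 10 passed, all higher (38.1% of all probes, 19.7% higher), and for both drugs against Torin 1 all 14 passed, 10 higher and 4 lower (36.7%). For both drugs against vehicle 12 passed, 10 higher and 2 lower (43.1%), and for the interaction 5, all higher (10.2%, 5.50% higher). The median log2 difference over the 14 probes was -0.05 for R1881, 0.38 for Torin 1, 0.83 for both drugs against R1881 and 0.41 for both against Torin 1. Over all kept probes it was -0.01, 0.02, 0.01 and -0.04. Since the genes were chosen with results known, and the second probes of ID1 and SMAD7 and both probes of NBL1 passed the filter only or mainly through groups in which they were high, these counts and medians are a description and support nothing about the set. The comparisons of R1881 and of Torin 1 with vehicle share the vehicle arrays.

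**Figure D3:**
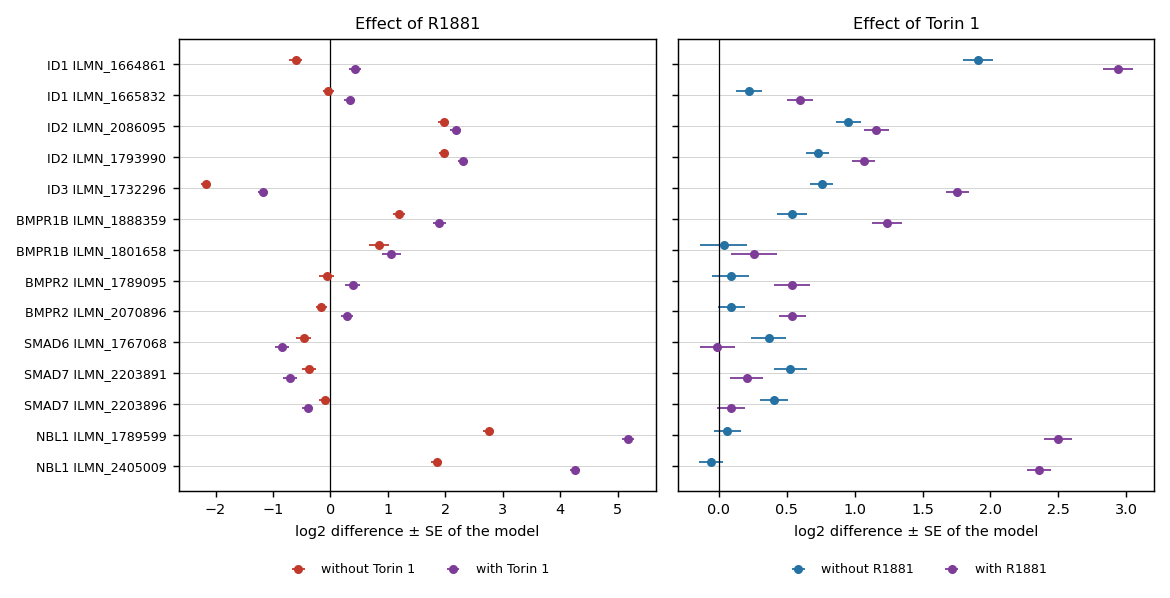
Log2 difference ± SE of the model (horizontal axis) for each kept member probe (vertical axis), for R1881 without and with Torin 1 on the left and for Torin 1 without and with R1881 on the right. ID1 lies left of 0 with R1881 alone (-0.60) and right of it under Torin 1 (0.43), and ID3 lies left of 0 in both. Values against a group that did not detect a probe (ID3, NBL1 and the second probes of ID1 and SMAD7) are fitted on levels near the background.

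Probes of the same gene followed each other over the 12 arrays, with Pearson r of 0.994 for ID2, 0.995 for NBL1, 0.898 for BMPR2, 0.874 for ID1, 0.866 for BMPR1B and 0.813 for SMAD7, where the group differences set most of the correlation. Among 11509 other genes, the patterns most like that of ID1 over the 12 arrays were those of ZEB1-AS1, CLK1, BEX4, MDK and BSDC1, with r of 0.985 to 0.988. CLK1, a kinase of splicing factors, averaged 8.61 with vehicle, 8.19 with R1881, 9.68 with Torin 1 and 9.68 with both. MDK, the growth factor midkine, averaged 7.37, 6.90, 8.61 and 9.15. Both were lowest with R1881 and high in the groups given Torin 1, as ID1 was. The genes closest to BMPR1B were ARFGAP3, which acts on ARF GTPases at the Golgi, SC5D, an enzyme of cholesterol synthesis, and GFM1, a mitochondrial elongation factor, with r of 0.992 to 0.993. SC5D averaged 10.01 with vehicle, 10.64 with R1881, 10.21 with Torin 1 and 11.23 with both.

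The rest of the pathway was read from 8 lists with 98 genes, of which 45 had a kept probe, each gene by its brightest. For R1881 against vehicle 12 of the 45 rose and 10 fell, where 34.6% of all genes passed. For Torin 1 against vehicle 9 rose and 4 fell (28.5% of all genes), for both drugs against R1881 20 rose and 7 fell (43.1%), and for both against Torin 1 17 rose and 10 fell (42.2%). For both against vehicle 19 rose and 9 fell (48.6%), and in the interaction 10 were higher and 2 lower (12.1%). ATOH8, INHBB and BMP3 passed the filter only, and CRIM1 mainly, through groups in which they were high. The lists were also chosen with results known, so these counts and those of each list below are a description.

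Ligands were scarce. Of 13 BMP ligands 12 had a probe and 2 were kept, BMP3 and BMP6. BMP6, a ligand that works through type I receptors such as ACVR1, averaged 5.67 with vehicle, 5.53 with R1881, 5.07 with Torin 1 and 5.17 with both. It fell by 0.60 ± 0.13 log2 with Torin 1 (adjusted p = 0.00341) and by 0.50 ± 0.13 with both drugs against vehicle (adjusted p = 0.00499). Both drugs against R1881 gave a fall of 0.36 ± 0.13 for BMP6 (adjusted p = 0.0363). That BMP6 call was lost without any of R1881 replicates 2 and 3 or replicates 1 and 3 of both drugs (adjusted p = 0.0921 to 0.142). BMP3, a BMP that antagonizes others, was detected on all 3 vehicle arrays, on 2 of 3 with R1881 and on none given Torin 1. BMP3 passed the filter only through the groups without Torin 1. Its lower call for both drugs against R1881 is therefore given with no size and no test. That call was also lost without any array of these groups save R1881 replicate 3. Of 9 TGF-beta and activin ligands 3 were kept. INHBB, an activin subunit, was detected only without R1881. It was at least 1.22-fold lower with R1881 than with vehicle, and at least 1.53-fold lower with both drugs than with Torin 1. INHBB passed the filter only through the groups without R1881, so these differences are given with no test. GDF11 fell by 0.82 ± 0.09 with Torin 1 (adjusted p = 1.78e-05) and rose by 0.61 ± 0.09 when R1881 was added to it (adjusted p = 8.86e-05), while its other kept probe gave -0.22 and -0.08, neither past the test. INHBB was also at least 1.19-fold lower with both drugs than with vehicle, again with no test. The calls of INHBB for Torin 1 against vehicle (0.36) and of GDF11 for both drugs against R1881 (-0.24) were each lost without single arrays (adjusted p = 0.107 to 0.135 and 0.0506 to 0.17). For both drugs against R1881 the other GDF11 probe gave -0.37 (adjusted p = 0.0278).

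Among 7 kept receptors and coreceptors outside the members, 3 rose and 1 fell with R1881, 3 rose with Torin 1, and in each comparison that involved both drugs 3 rose and 1 fell. ACVR2A, a type II receptor shared by activins and BMPs, averaged 5.97 with vehicle, 6.64 with R1881, 6.36 with Torin 1 and 7.02 with both. It rose by 0.67 ± 0.10 log2 with R1881 (adjusted p = 0.000233), and by 0.40 ± 0.10 with Torin 1 (adjusted p = 0.0126; 0.0524 to 0.0583 without vehicle replicate 2 or Torin 1 replicate 2). TGFBR3, a coreceptor also known as betaglycan, rose by 0.50 ± 0.11 with R1881, 0.67 ± 0.11 with Torin 1 and 1.48 ± 0.11 with both (adjusted p = 0.00299, 0.000561 and 8.99e-08). RGMB, a coreceptor for BMPs, rose by 0.54 ± 0.11 with R1881 and 0.97 ± 0.11 with both drugs against vehicle (adjusted p = 0.00238 and 8.48e-06). BAMBI, a decoy receptor without a kinase domain, fell with R1881 but rose with Torin 1 alone. It averaged 10.35 with vehicle, 10.00 with R1881, 10.77 with Torin 1 and 9.35 with both. R1881 lowered BAMBI by 0.35 ± 0.09 without Torin 1 and by 1.43 ± 0.09 with it (adjusted p = 0.00858 and 2.16e-08), and these responses differed by -1.08 ± 0.12 (adjusted p = 0.000123). With arrays scaled to their median over all probes, the calls of RGMB and TGFBR3 for R1881 and of ACVR2A and BAMBI for Torin 1 were lost (adjusted p = 0.0909, 0.147, 0.0827 and 0.178), and the fall of BAMBI with R1881 was lost with scaling over kept probes (0.0795).

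Of the SMADs that carry the signal, 5 of 6 were kept, and SMAD1 was not. SMAD4, the partner common to all branches, rose with Torin 1 by 0.49 ± 0.08 log2 (adjusted p = 0.000834) and with both drugs against R1881 by 0.51 ± 0.08 (adjusted p = 0.000299). SMAD5, which carries BMP signals, fell with R1881 by 0.40 ± 0.08 (adjusted p = 0.00132) and rose with Torin 1 by 0.31 ± 0.08 (adjusted p = 0.00976). SMAD9, another BMP SMAD, was 0.73 ± 0.20 higher with both drugs than with R1881 on its brighter probe (adjusted p = 0.0109; 0.0535 without replicate 3 of both drugs). Its other kept probe gave 1.35 ± 0.12, with adjusted p = 9.94e-07 for SMAD9 there. SMAD3, of the TGF-beta branch, was 0.43 ± 0.14 lower with both drugs than with Torin 1 (adjusted p = 0.0262; 0.0617 to 0.103 without Torin 1 replicate 1 or 3 or replicate 1 of both drugs). In the list, 1 fell with R1881, 2 rose with Torin 1, 3 rose with both drugs against R1881, and 1 rose and 2 fell with both against Torin 1. Scaling arrays to their median over all probes ended the calls of SMAD4 and SMAD5 for Torin 1 (adjusted p = 0.076 and 0.473) and of SMAD5 for both drugs against R1881 (0.0975).

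Of 16 intracellular regulators 13 were kept, and 6 rose and 3 fell with R1881, 2 rose and 1 fell with Torin 1, and 8 rose and 2 fell with both drugs against R1881. PMEPA1, an androgen-induced membrane protein that sequesters SMAD2 and SMAD3, averaged 6.45 with vehicle, 9.21 with R1881, 6.36 with Torin 1 and 10.05 with both. R1881 raised it by 2.76 ± 0.08 log2 without Torin 1 and by 3.69 ± 0.08 with it (adjusted p = 2.42e-11 and 7.44e-13), a difference of 0.93 ± 0.12 (adjusted p = 0.00022). A second PMEPA1 probe gave 2.36 and 3.34, and ILMN_1657823 gave 0.32 and 0.46. The ubiquitin ligases WWP1 and NEDD4L, which act on SMADs and receptors, rose with R1881 by 0.67 ± 0.09 and 0.61 ± 0.09 (adjusted p = 4.13e-05 and 0.000238). They rose with Torin 1 by 0.38 and 0.36 (adjusted p = 0.00563 and 0.0132), the latter lost without vehicle replicate 1 (0.064), and both were lost with arrays scaled to their median over all probes (0.35 and 0.209). TGIF2, a corepressor, fell by 0.74 ± 0.08 and USP15, a deubiquitinase of type I receptors and SMADs, by 0.80 ± 0.10 with R1881 (adjusted p = 1.21e-05 and 2.65e-05). FKBP1A, which holds type I receptors inactive, was 0.70 ± 0.08 lower with both drugs than with R1881 on its brightest probe (adjusted p = 2.28e-05), while another of its 4 kept probes was 0.61 higher. PPM1A, a phosphatase of SMADs, was 0.49 ± 0.08 higher in that comparison (adjusted p = 0.000354), and its other 4 kept probes gave 0.29 to 1.40. The fall of FKBP1A with Torin 1, 0.32 ± 0.08 (adjusted p = 0.0129), was lost without vehicle replicate 2 or Torin 1 replicate 2 (0.0543 to 0.0588).

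Of 16 other secreted antagonists 4 were kept, of which 1 fell with R1881, none passed for Torin 1, and 2 rose with both drugs against R1881. TWSG1, which binds BMPs with chordin, fell with R1881 by 0.36 ± 0.08 log2 (adjusted p = 0.00515), and was 0.92 ± 0.08 higher with both drugs than with R1881 (adjusted p = 1.8e-06). The responses of TWSG1 to R1881 thus differed by 0.76 ± 0.12 (adjusted p = 0.00121), and by 1.19 on its other probe, on which the fall without Torin 1 was 0.08 and did not pass. CRIM1, a membrane protein that binds BMPs, was detected on 1 of 9 arrays outside the group with both drugs. There it was on all 3, at least 1.59-fold above R1881, and it passed the filter mainly through that group. FSTL3, a follistatin-like binder of activin, was at least 1.26-fold lower with both drugs than with Torin 1 (adjusted p = 0.0215), a call lost without Torin 1 replicate 2 or 3 or replicate 1 of both drugs (0.0678 to 0.0813).

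Of 13 other BMP target genes 6 were kept, of which 1 rose and 1 fell with R1881, 1 rose with Torin 1 and 2 rose with both drugs against R1881. TBX3, a T-box repressor, averaged 8.15 with vehicle, 7.69 with R1881, 8.70 with Torin 1 and 8.70 with both, lowest with R1881 and high with Torin 1 as ID1 was. It fell by 0.45 ± 0.08 log2 with R1881 and rose by 0.55 ± 0.08 with Torin 1 (adjusted p = 0.00108 and 0.00039), although its second, dimmer probe gave 0.01 and -0.23. MSX1, a homeobox repressor, rose with R1881 by 0.37 ± 0.08 (adjusted p = 0.00369; 0.235 with arrays scaled to their median over all probes). ATOH8, a helix-loop-helix factor, was detected only with both drugs, on 3 of 3 arrays, at least 1.49-fold above R1881 and at least 1.54-fold above vehicle. It passed the filter only through that group, so no test is given. JUNB, MSX2 and DLX3 passed in no comparison.

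The helix-loop-helix list, whose members ID proteins bind or resemble, had 5 of 12 genes kept. With R1881 2 rose and 2 fell, with Torin 1 1 fell, and with both drugs against R1881 2 rose and 1 fell. HES6, which counters HES1, averaged 10.22 with vehicle, 12.48 with R1881, 9.83 with Torin 1 and 11.33 with both. It rose by 2.26 ± 0.09 log2 with R1881 and fell by 0.39 ± 0.09 with Torin 1 (adjusted p = 2.57e-10 and 0.00475). TWIST1, a regulator of epithelial to mesenchymal transition, rose by 0.65 ± 0.12 with R1881 and was 1.52 ± 0.12 higher with both drugs than with Torin 1 (adjusted p = 0.000977 and 2.65e-07). TCF12 and TCF3, the E proteins that ID proteins sequester, fell with R1881 by 0.58 ± 0.11 and 0.55 ± 0.13 (adjusted p = 0.00153 and 0.00656). With both drugs against R1881, TCF12 rose by 0.93 ± 0.11 (adjusted p = 2.65e-05), and TCF3 gave -0.09 ± 0.13 (adjusted p = 0.653). TCF12 against vehicle (0.35 ± 0.11 with both drugs, adjusted p = 0.0237) was lost without any of vehicle replicates 1 and 2 or replicates 2 and 3 of both drugs (0.0585 to 0.115). LYL1 was 0.38 ± 0.14 lower with both drugs than with Torin 1 (adjusted p = 0.0458), lost without any of 5 arrays (0.0536 to 0.189).

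**Figure D4:**
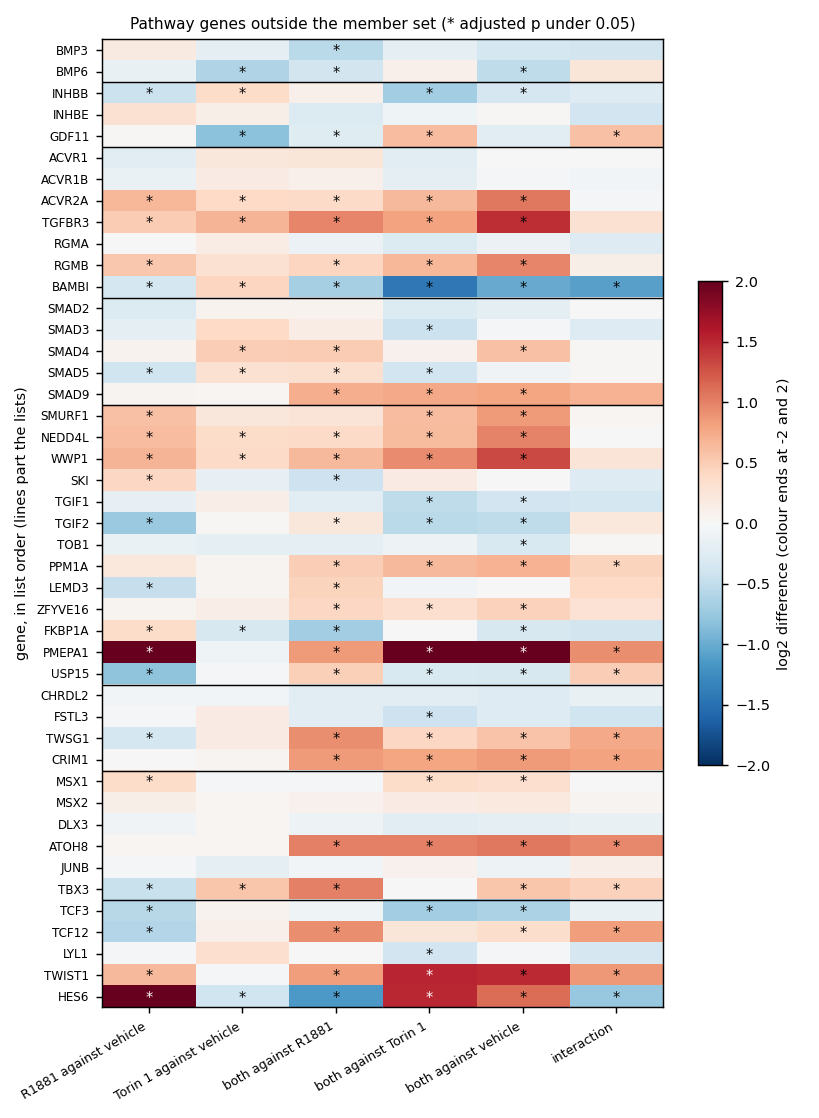
Log2 difference (colour, ending at -2 and 2) of each of the 45 kept pathway genes (vertical axis, in list order) in the 6 comparisons (horizontal axis; "both" is Torin 1 with R1881). An asterisk marks an adjusted p under 0.05 (limma, Benjamini-Hochberg). PMEPA1 and HES6 are the most strongly raised with R1881, at 2.76 and 2.26, and BAMBI is the most strongly lowered when R1881 is added to Torin 1, at -1.43.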

How the data were processed

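RNA of LNCaP cells was measured on 12 one-colour Illumina arrays, grouped by the labels. The authors' deposited signal table gives an intensity for each probe and array, not normalized between arrays as its values show (array medians of 93.84 to 107.2), and beside it, per the file headers, stands a detection p-value. The authors also deposited a processed log2 table, made in a way not given in the sources used here, which served as an alternative. The lowest correlation between an array's column there and the normalized signal was 0.9742. Probes were named through the platform annotation, with 0 symbols updated.

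The deposited intensity was background-corrected with limma 3.58.1 (R 4.3.3) by normexp, which took the negative controls' level from the detection p-values, with 16 added as the offset. Quantile normalization and log2 followed. Probes with detection p under 0.05 on at least 3 of 12 arrays were kept. Of these, 15137 had exactly 1 symbol. All 12 arrays entered a linear model of 4 group means (8 residual degrees of freedom) with empirical Bayes moderation, and p-values were adjusted by Benjamini-Hochberg over all 20413 kept probes, with 0.05 as the threshold. The interaction is the response to R1881 with Torin 1 less that without it. The number of arrays limits precision, and the smallest two-sided p of an exact permutation test with 3 arrays per group is 0.1. Where a group detected a probe on none of its arrays and the other group did, a bound was computed from the dimmest detected signal of each array. Such a bound holds only for this background correction and normalization. The lowest r between arrays of a group was 0.9911. Same-numbered arrays deviated together with r of -0.11 to 0.146, which gave no ground for pairing them. The fit was tested on simulated data.

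The members and all lists were chosen with earlier results of these data known. Named were all members with every probe and, per list and comparison, up to 4 called genes with the smallest adjusted p (all if 5 or fewer), plus the 5 genes most like ID1 and the 3 most like BMPR1B. All probes of a member are given, and the other probes of a pathway gene only in part. The pathway lists were BMP ligands, TGF-beta and activin ligands, other receptors and coreceptors, signal-transducing SMADs, intracellular regulators, other secreted antagonists, other BMP target genes and helix-loop-helix partners. Marker lists covered luminal and basal prostate epithelium, stroma, immune cells and endothelium. Alternatives were an offset of 50, median scaling over all probes, cyclic loess, the authors' processed table, no filter, detection p under 0.01, 1 probe per gene, the replicate number as a block, and leaving out each array. Median scaling over kept probes was chosen after seeing the data.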

Additional observations from a re-analysis of the deposited data

Results flagged for a closer look

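In 14 cases the fitted response to R1881 differed with Torin 1 from that without it, at an adjusted p under 0.05 (limma, Benjamini-Hochberg over all kept probes). Of all kept probes 10.2% did so, and of all genes 12.1%. CRIM1 and ATOH8, counted among the 14, passed the filter mainly or only through the group with both drugs, so neither is given with a test. Pathway genes were counted by their brightest probe. SMAD9, FKBP1A and TGIF1 passed on a dimmer probe only (ILMN_1815385, ILMN_1702237 and ILMN_2318643). Those probes gave 0.99, 0.81 and -0.66 (adjusted p = 0.00185, 0.00207 and 0.00589). Among the members, ID3 fell less under Torin 1, by a fitted 1.00 ± 0.12 log2 (adjusted p = 0.000168), which was 0.37 with the offset of 50 and 0.22 on the authors' processed table, and whose size rests on R1881 arrays that did not detect it. BMPR1B rose more, by 0.70 ± 0.16 (1.89 against 1.19, adjusted p = 0.012, on ILMN_1888359), while ILMN_1801658 gave 0.22 (adjusted p = 0.64).

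Among the ligands and antagonists, GDF11 responded by 0.61 with and 0.03 without Torin 1, a difference of 0.58 ± 0.12 (adjusted p = 0.00971; 0.0571 with median scaling over all probes), while its other kept probe gave -0.15 (adjusted p = 0.651). TWSG1 responded by 0.41 and -0.36, a difference of 0.76 ± 0.12 (adjusted p = 0.00121). The fitted difference of CRIM1 was 0.80 ± 0.13 log2, on levels near the background in the other 3 groups.

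BAMBI fell more under Torin 1, by -1.08 ± 0.12 (adjusted p = 0.000123). PMEPA1 rose more, by 0.93 ± 0.12 (adjusted p = 0.00022), while ILMN_2309156 gave 0.98 and ILMN_1657823 gave 0.14 (adjusted p = 0.00105 and 0.772). PPM1A rose by 0.65 with and gave 0.20 without Torin 1, a difference of 0.45 ± 0.12 (adjusted p = 0.0287, lost without any of 7 arrays, 0.0518 to 0.0713). Its other kept probes gave 0.17 to 1.33, past the test on ILMN_2410516 and ILMN_1727127 only. USP15 fell less, by 0.49 ± 0.14 (adjusted p = 0.0383, lost without any of 10 arrays, 0.0529 to 0.0868).

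Among target and helix-loop-helix genes, ATOH8 gave a fitted difference of 0.97 ± 0.13 log2, with none of the 9 arrays outside the group with both drugs detecting it. TBX3 gave 0.01 with and fell by 0.45 without Torin 1, a difference of 0.46 ± 0.12 (adjusted p = 0.0273, lost without any of 6 arrays, 0.0546 to 0.0664). The dimmer TBX3 probe gave 0.39 (adjusted p = 0.417). TWIST1 rose more, by 0.87 ± 0.17 (adjusted p = 0.00545), and HES6 rose less, by -0.76 ± 0.12 (adjusted p = 0.00149; 0.0541 with median scaling over all probes). TCF12 gave 0.25 with and fell by 0.58 without Torin 1, a difference of 0.83 ± 0.16 (adjusted p = 0.00551).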

How the results depend on the processing

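No result of a member or pathway gene changed direction while called. Counts of called member probes lay between 7 and 11 for R1881, 6 and 8 for Torin 1, and 4 and 8 for the interaction over the 21 alternatives. The interaction count was 8 with an offset of 50 (5 with the offset of 16). With 1 probe per gene the member counts were 6 for both drugs against R1881, 8 for both against Torin 1 and 7 for both against vehicle, fewer because 8 genes stand for 14 probes. Median scaling over all probes gave 6 pathway genes for Torin 1 and 7 for the interaction, where quantile normalization gave 13 and 12. That scaling moved the median log2 difference of all probes from -0.01 to -0.14 for R1881, from -0.04 to -0.13 for both drugs against Torin 1 and from 0.00 to -0.15 for both against vehicle, and the share of higher among called probes from 44.7% to 20.3% for R1881. Scaling over kept probes gave 57.5%. The cause was not tested. Leaving out 1 array gave 8 to 10 member calls for R1881, 6 to 8 for Torin 1, 9 to 11 for both against R1881 and 11 to 14 for both against Torin 1. With the replicate block, 10, 8, 10 and 14 were called, and SMAD6 passed for Torin 1 against vehicle (adjusted p = 0.0224). The numbers are not a known pairing, and 3 of the 12 arrays were closest to one of their own number. Signal near the background limits ID4, the second probes of ID1 and SMAD7, and NBL1 without R1881.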
